A study of Homo sapiens with 12 samples.

Results

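The 38 genes described here encode the enzymes and transporters of glycolysis and lactate handling, the hypoxia-inducible factors with their prolyl hydroxylases, and a set of genes known to respond to low oxygen. They were taken by symbol from the 26485 genes measured in the series, and all 38 were listed. BT474, an established human cell line from a HER2-positive breast tumour, is wild type by its label, and lapatinib is a kinase inhibitor of HER2 and EGFR. Poly(A) RNA was sequenced from 4 groups of 3 libraries. Control was taken at day 0, the drug-tolerant persister cells (DTP) at day 9, the drug-tolerant expanded persister cells (DTEP) at month 6, and cells with long-term resistance (LR, named Resistant by the label) at month 9. Lapatinib was given at 1 µM, renewed every 3 days. The labels also list 1 µM lapatinib for the Control libraries, which were read here as untreated because their titles place them at day 0. The study names parallel plates and also technical replicates. The p-values therefore measure the spread between these libraries, pooled over the groups, which may be technical. The long-term states may each come from few surviving cells of 1 parental line.

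Glycolysis splits glucose into pyruvate, which lactate dehydrogenase reduces to lactate or which enters the mitochondria through pyruvate dehydrogenase. The oxygen-sensitive subunits HIF-1α (HIF1A) and HIF-2α (EPAS1) are hydroxylated by EGLN enzymes when oxygen is present and are then degraded, so their protein levels are set largely after transcription. Stabilised HIF binds the core motif of hypoxia response elements and raises glycolytic enzymes, VEGFA, CA9 and its own hydroxylases EGLN1 and EGLN3. HER2 signalling is known to promote glucose uptake and glycolysis in breast cancer cells.

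Levels are normalised read counts, which are read counts scaled to one fixed library total (CPM) with trimmed-mean factors. Depth was 16383363 to 25030482 assigned reads, and 1 read was worth 0.0412 to 0.0576. Of the 38 genes, 36 reached 1 or more in 3 or more libraries and were tested, and CA9 and SLC2A3 were not. A gene was called when the adjusted p of limma, over all 13794 genes tested, was below 0.05 and its change on the log2(value + 1) scale was above 1 in size, and "rose" and "fell" are used for such calls. The adjusted p-values below are limma's with Benjamini-Hochberg adjustment. In bulk RNA, fewer cells of a type and less RNA per cell cannot be told apart. Epithelial markers such as KRT8, KRT18 and EPCAM were present in all libraries. In the order Control, DTP, DTEP, LR the means of ERBB2 were 6526, 8545, 1627 and 1774. CDH1 went from a mean of 1125 in Control to 75.1 in LR and ESR1 from 151 to 0.153, whereas GATA3 went from 190 to 1251. Of the 12 luminal markers, 4 rose and 7 fell from DTP to DTEP, against 22.4% and 19.5% of all genes. The summed luminal list, in which ERBB2 had the highest Control mean, ranged from 12529 to 13375 in Control and 14984 to 17776 in DTP. It ranged from 6492 to 8260.5 in DTEP and 6376 to 8159 in LR. Of 19 markers of fibroblasts, immune and endothelial cells, 16 (PTPRC, CD3E, COL1A2, PDGFRB, PECAM1 and CDH5 among them) stayed below 1 in every library. The other 3 were COL1A1, a collagen gene, with means of 55.3, 54.4, 99.8 and 111 in the order Control, DTP, DTEP, LR, the lysosomal CD68 with 1.76, 2.38, 2.88 and 1.17, and the endothelial VWF with 8.09, 2.10, 0.211 and 0.118. The third DTEP library stood apart from the other DTEP libraries and lay nearer to LR, with Pearson correlations across genes of 0.971 to 0.986 with LR libraries and of 0.934 to 0.962 with DTEP libraries.

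The glycolysis and hypoxia genes rose most often upon the DTP-DTEP transition. Relative to Control, their counts of calls in DTP and in LR lay close to or under the shares of all genes. By groups without overlap, however, 21 of the 36 were lower and 9 higher in DTP than in Control, against 39.6% and 37.7% of all genes. Upon the Control-DTP transition 2 of the 36 tested genes rose (ADM and NDRG1), against 9.24% of all genes tested, and 4 fell (HK2, LDHA, PDK1 and HIF1A), against 15.8%. Upon the DTP-DTEP transition 17 rose, against 22.4% of all genes, and 4 fell (SLC2A1, PKM, LDHB and ADM), against 19.5%. The DTEP-LR transition gave 0 rises, against 1.45%, and 3 falls (PFKP, GAPDH and ANKRD37), against 2.5%. There 2 genes were higher and 15 lower in LR at an unadjusted p below 0.05 in limma, against 14.2% and 20.7% of all genes. On the recovered reads edgeR called 7 falls (6.32% of all genes) and DESeq2 called 9 (8.6%), and both called 0 rises (1.87% and 2.61%). Relative to Control, 12 genes were higher and 3 lower in DTEP, against 15.1% and 16.4% of all genes, and 7 were higher and 7 lower in LR, against 16.9% and 19.6%. The median change of the 36 genes was -0.32, 0.85 and -0.58 in the successive transitions, with -0.01, 0.08 and -0.07 over all genes tested. The DTEP group had the highest mean for 18 of the 36 genes, which is 50% where 22.4% of all genes peaked in DTEP, and the DTP group had the lowest mean for 16, which is 44.4% where the share of all genes was 32.5%.

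The limit on size decided many calls. By the adjusted p alone, 5 genes were higher and 9 lower in DTP than in Control, against 25.2% and 28.8% of all genes, 20 higher and 5 lower in DTEP than in DTP (35.7% and 32.6%), and 0 higher and 3 lower in LR than in DTEP (3.04% and 4.31%). Relative to Control the adjusted p alone gave 18 and 5 in DTEP (29.5% and 28.7%) and 11 and 9 in LR (30.2% and 32.6%). Above a log2 change of 2 in size, PDK1 was the 1 gene that remained in DTP, as lower, and 0 were higher (3.9% and 1.01% of all genes). At that limit 8 were higher and 2 lower in DTEP than in DTP (8.13% and 7.02%), 0 either way in LR against DTEP (0.225% and 0.457%), 5 and 1 in DTEP against Control (4.43% and 6.2%), and 4 and 3 in LR against Control (5.03% and 7.8%). The libraries of the compared groups did not overlap for 9 higher and 21 lower genes in DTP against Control (37.7% and 39.6% of all genes) and for 21 and 5 in DTEP against DTP (34.5% and 32.8%). Against Control they did not overlap for 17 and 6 genes in DTEP (33.2% and 32.5%) and for 12 and 14 in LR (37.6% and 39.4%).

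**Figure D1:**
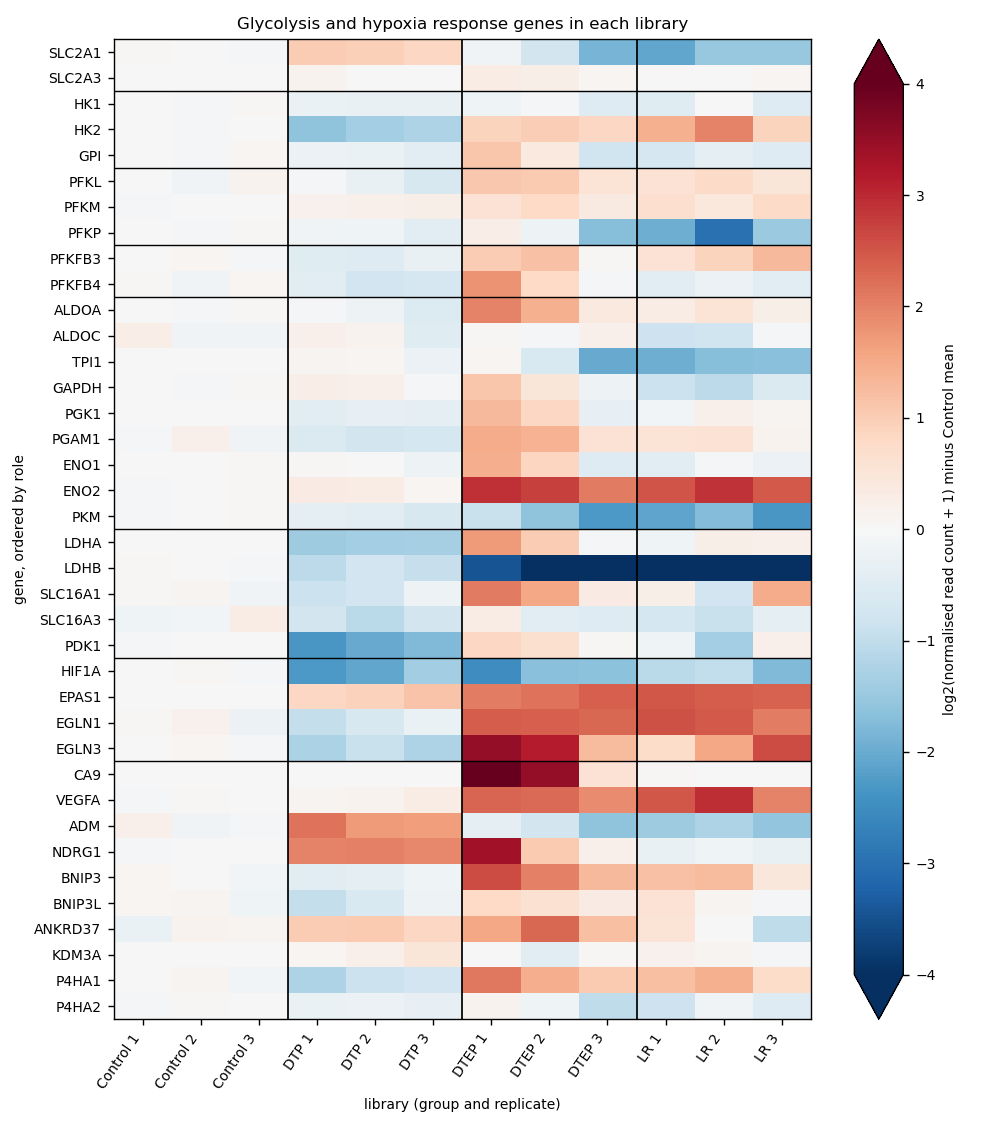
Level of each of the 38 genes (rows, ordered by role) in the 12 libraries (columns), as log2(normalised read count + 1) minus the Control mean, with blue for lower and red for higher and the colour scale ending at 4 in each direction. EGLN1, ENO2, VEGFA and EPAS1 were high in the DTEP and LR libraries, LDHB was low in DTEP and without a read in LR, and many glycolytic genes were highest in the DTEP libraries 1 and 2.

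Of the 2 glucose transporter genes SLC2A1 was well detected and fell in the long-term states. SLC2A1, which encodes the glucose transporter GLUT1, stood at 154, 149 and 145 in Control, 301, 292 and 265 in DTP, 137, 88.9 and 40.4 in DTEP and 35.0, 51.5 and 51.7 in LR. All DTP libraries lay above Control and all DTEP and LR libraries below it. SLC2A1 was higher in DTP than in Control by 0.93 (adjusted p = 0.0305), which passed the adjusted p but not the limit on size. It then fell by 1.84 (adjusted p = 0.000323) upon the DTP-DTEP transition, and LR was below Control with a change of -1.70 (SE 0.33, adjusted p = 0.000699). SLC2A3, the high-affinity transporter GLUT3, had at most 5 reads in any library. SLC2A1 was highest in DTP, the group with the lowest HK2 and LDHA, and had its lowest mean in LR.

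The first step of glycolysis changed through HK2. HK2, the inducible hexokinase that phosphorylates glucose, was measured at 120.0, 116 and 121 in Control, 38.1, 45.9 and 50.2 in DTP, 222, 238 and 213 in DTEP and 318, 476 and 222 in LR. The 4 groups did not overlap except for DTEP and LR. HK2 fell by 1.40 (adjusted p = 0.000254) in DTP, rose by 2.31 (adjusted p = 2.02e-06) in DTEP and stood above Control by 1.43 in LR (SE 0.22, adjusted p = 0.000116). HK1, the constitutive hexokinase, was called in no comparison, with means of 471 ± 12.8 in Control, 387 ± 7.35 in DTP, 398 ± 64.6 in the DTEP group and 375 ± 76.7 in the LR group (SD, n = 3). GPI, which converts glucose 6-phosphate to fructose 6-phosphate, was not called either, and its DTEP libraries spread from 398 to 1495.

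Among the phosphofructokinases, which catalyse the committed step, the liver and platelet forms went different ways. PFKL, the liver form, had levels of 111, 99.0 and 121 in Control, 104, 89.1 and 70.3 in DTP, 231, 228 and 161 in DTEP and 164, 189 and 153 in LR. It rose by 1.23 in DTEP (SE 0.18, adjusted p = 6.61e-05), and the DTEP and LR libraries lay above all Control and DTP libraries. PFKP, the platelet form, gave 149, 141 and 152 in Control, 135, 129 and 109.9 in DTP, 179, 127 and 45.0 in DTEP and 36.9, 17.9 and 51.8 in LR. The DTEP group spread from above Control down to the LR level, and the LR libraries were all below Control. The change of PFKP in LR was -2.14 (adjusted p = 0.00108) relative to Control and -1.60 relative to DTEP (SE 0.44, adjusted p = 0.0485), the latter with overlapping groups and a call that 14 of 22 alternative fits did not keep. PFKM, the muscle form, was 0.58 higher in DTEP (adjusted p = 0.00229) and 0.62 higher in LR (adjusted p = 0.00137) than in Control, below the limit on size.

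The bifunctional PFKFB enzymes set the level of fructose 2,6-bisphosphate, an activator of phosphofructokinase. PFKFB3 was at 29.2, 30.8 and 27.9 in Control, 20.7, 20.4 and 23.8 in DTP, 59.9, 67.8 and 30.5 in DTEP and 43.8, 55.2 and 72.9 in LR. It rose by 1.17 upon the DTP-DTEP transition (SE 0.26, adjusted p = 0.00176), and the change was 0.96 and not called without the second DTEP library. PFKFB4 was at 18.9, 16.5 and 19.2 in Control, 13.3, 10.2 and 11.0 in DTP, 65.3, 32.5 and 17.2 in DTEP and 13.2, 15.4 and 13.2 in LR. Its DTEP libraries were all above DTP and its LR libraries below all Control libraries, and it rose by 1.46 in DTEP (SE 0.35, adjusted p = 0.00252), a change of 0.99 that is no call without the first DTEP library. Relative to DTEP, PFKFB4 in LR had a change of -1.20 (adjusted p = 0.0543), which did not pass.

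In the lower part of glycolysis 3 of 9 enzymes rose and 1 fell upon the DTP-DTEP transition, where 22.4% and 19.5% of all genes did. ALDOA, the main aldolase, was at 1105, 1065 and 1135 in Control, 1065, 949 and 747 in DTP, 4316, 2948 and 1439 in DTEP and 1362, 1613 and 1287 in LR. It rose by 1.53 (adjusted p = 0.000993) and was above Control by 1.26 in DTEP (SE 0.32, adjusted p = 0.0047), the latter 0.90 without the first DTEP library. PGAM1, a phosphoglycerate mutase, was counted at 6.81, 8.43 and 6.34 in Control, 4.49, 3.85 and 3.97 in DTP, 21.8, 20.3 and 11.2 in DTEP and 10.8, 11.1 and 8.04 in LR. DTP was below and DTEP above every Control library, with a rise of 1.83 (adjusted p = 2.79e-05) upon the DTP-DTEP transition and of 1.15 relative to Control (SE 0.24, adjusted p = 0.00131), the latter 0.99 without the first DTEP library. Per kilobase of exon PGAM1 had 2.83 normalised read counts in Control where GAPDH had 1086, and since PGAM1 and several other glycolytic genes have near-identical processed copies in the genome, reads that match both can be lost or split and these levels are uncertain.

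ENO2, the neuronal enolase, changed more than the ubiquitous ENO1. ENO2 stood at 20.6, 21.4 and 22.1 in Control, 26.9, 26.5 and 22.8 in DTP, 167, 149 and 94.0 in DTEP and 127, 163 and 122 in LR. Every DTEP and LR library was above every Control and DTP library. The rise was 2.35 (adjusted p = 7.85e-07) from DTP to DTEP, 2.58 (adjusted p = 4.32e-07) from Control to DTEP and 2.62 from Control to LR (SE 0.20, adjusted p = 3.15e-07). DTEP and LR differed by 0.04, with a 95% interval from -0.39 to 0.47.

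The upstream 250 bases of the ENO2 start are shown for the large rise of ENO2 from Control to LR (chr12:6914330-6914579, plus strand, GRCh38.p14, RefSeq, 5′ to 3′). Capitals mark the core of hypoxia response elements, searched as ACGTG and as GCGTG on both strands, with ACGTG overlapping itself in CACGTG.
ENO2: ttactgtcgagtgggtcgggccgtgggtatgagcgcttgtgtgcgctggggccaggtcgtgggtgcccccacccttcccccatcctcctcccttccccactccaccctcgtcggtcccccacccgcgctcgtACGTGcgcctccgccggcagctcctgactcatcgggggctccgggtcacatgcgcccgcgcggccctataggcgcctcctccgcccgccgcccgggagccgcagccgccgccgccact
The window holds 1 ACGTG. Of the 33 members with an entry, 13 (39.4%) held ACGTG where 18.7% of 27305 such windows did, 12 (36.4%) held GCGTG where the share of all was 31.9%, and 21 (63.6%) held either where the share of all was 43.1%. A match is a string in the window and does not show binding. The members were listed as glycolysis and known hypoxia response genes, so their share describes the list and not these libraries.

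PKM, GAPDH and TPI1 lay lower in LR than in Control. PKM, the pyruvate kinase that makes pyruvate, was at 2142, 2173 and 2267 in Control, 1677, 1619 and 1412 in DTP, 1191, 726 and 448 in DTEP and 506, 652 and 435 in LR. Each later group was below the Control and DTP libraries without overlap. PKM fell by 1.10 (adjusted p = 0.0046) upon the DTP-DTEP transition (-0.75 and not called without the third DTEP library), and its change relative to Control was -1.59 (adjusted p = 0.000487) in DTEP and -2.06 in LR (SE 0.29, adjusted p = 5.52e-05). GAPDH, the glyceraldehyde phosphate dehydrogenase, gave 2579.8, 2525 and 2704 in Control, 3161, 3013 and 2447 in DTP, 5618, 3633 and 2271 in DTEP and 1439.9, 1268 and 1747 in LR. It fell by 1.29 from DTEP to LR (SE 0.29, adjusted p = 0.0279) with no overlap, and 10 of 22 alternative fits did not keep this call. LR differed from Control in GAPDH by -0.82 (adjusted p = 0.0255), short of the size limit. TPI1, the triose phosphate isomerase, was at 356, 362 and 365 in Control, 388, 379 and 309.7 in DTP, 379, 235 and 89.4 in DTEP and 92.9, 109 and 114 in LR. The LR libraries were all below Control, with a change of -1.77 (SE 0.37, adjusted p = 0.0013), and the DTEP libraries ran from the Control level down to the LR level.

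Of the remaining enzymes of that section, PGK1, phosphoglycerate kinase, had means of 556 ± 6.28 in Control, 427 ± 16.1 in DTP, 930.5 ± 465 in the DTEP group and 583 ± 58.7 in the LR group (SD, n = 3), and its 0.98 in DTEP against DTP (adjusted p = 0.0128) was just short of the size limit. ENO1 had means of 1205 ± 26.7 in Control, 1177 ± 105 in DTP, 2123 ± 1247 in the DTEP group and 1019 ± 128 in the LR group and was called in no comparison. ALDOC, the brain aldolase, stayed between 0.676 and 2.62 in the 12 libraries. Summed over 17 glycolytic enzymes with both lactate dehydrogenases, levels were 10073 to 10582 in Control, 7886 to 9551 in DTP and 6847 to 8042 in LR, whereas the DTEP libraries gave 20868, 14129 and 7396.

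The fate of pyruvate gave the widest contrast between related genes. LDHA, the lactate dehydrogenase subunit that favours lactate formation, was at 576, 556 and 568 in Control, 213, 222 and 227 in DTP, 1831, 1159 and 534 in DTEP and 507, 673 and 648 in LR. DTP was below Control in every library, and DTEP was above DTP in every library. Against Control, LDHA was not called in DTEP, where the third library lay below every Control library. LDHA fell by 1.36 (adjusted p = 0.00422) in DTP and rose by 2.24 in DTEP (SE 0.33, adjusted p = 6.91e-05), and LR differed from Control by 0.09 (adjusted p = 0.816). LDHB, the subunit that favours pyruvate formation, was at 53.4, 52.0 and 48.5 in Control, 24.4, 29.6 and 26.6 in DTP, 3.78, 0.453 and 0 in DTEP and 0, 0 and 0 in LR. These DTEP values came from 79, 11 and 0 reads, and no LR library had a read. LDHB fell by 3.86 (adjusted p = 6.11e-06) upon the DTP-DTEP transition, and its change relative to Control was -4.78 (adjusted p = 1.39e-06) in DTEP and -5.71 in LR (SE 0.42, adjusted p = 2.60e-07). Against the limit of 3 reads per library, LDHB was at least 309-fold lower in LR than in Control. Per kilobase of exon, LDHA and LDHB had mean levels of 94.0 and 17.2 in Control, 36.6 and 9.01 in DTP, and 195 and 0.473 in DTEP, and LDHA had 101 in LR where LDHB had 0.

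The 2 lactate dehydrogenase promoters are shown since this pair moved furthest apart. The windows are chr11:18394313-18394562, plus strand for LDHA and chr12:21657843-21658092, minus strand for LDHB (GRCh38.p14, RefSeq, 5′ to 3′), with capitals as above.
LDHA: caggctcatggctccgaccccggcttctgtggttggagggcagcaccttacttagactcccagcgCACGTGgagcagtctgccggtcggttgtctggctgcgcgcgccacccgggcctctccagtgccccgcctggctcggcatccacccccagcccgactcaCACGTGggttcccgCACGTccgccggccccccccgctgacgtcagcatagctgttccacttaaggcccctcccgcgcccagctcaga
LDHB: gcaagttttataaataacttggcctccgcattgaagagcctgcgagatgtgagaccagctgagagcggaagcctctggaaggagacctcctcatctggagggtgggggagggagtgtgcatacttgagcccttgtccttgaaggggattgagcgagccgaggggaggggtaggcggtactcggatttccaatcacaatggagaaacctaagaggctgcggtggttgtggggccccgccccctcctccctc
The LDHA window holds 5 matches to ACGTG, counting both strands of CACGTG, and the LDHB window holds neither ACGTG nor GCGTG.

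PDK1, the kinase that inhibits pyruvate dehydrogenase, was at 30.4, 31.5 and 31.8 in Control, 5.38, 6.96 and 8.52 in DTP, 56.3, 49.4 and 32.1 in DTEP and 27.3, 11.5 and 35.9 in LR. The DTP libraries were the lowest of the 12. PDK1 fell by 2.04 (adjusted p = 0.000435) in DTP and rose by 2.54 in DTEP (SE 0.34, adjusted p = 3.70e-05). SLC16A1, the monocarboxylate transporter MCT1, was low at 2.25, 2.34 and 1.82 in Control, 0.731, 0.839 and 1.73 in DTP, 12.2, 8.07 and 2.92 in DTEP and 2.70, 0.830 and 7.70 in LR. It rose by 1.92 upon the DTP-DTEP transition (SE 0.51, adjusted p = 0.00531), and its excess of 1.31 (adjusted p = 0.0435) over Control was not kept as a call by 13 of 21 alternative fits. SLC16A3, the lactate exporter MCT4, lay between 0.888 and 3.88 in the 12 libraries and was called in no comparison.

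**Figure D2:**
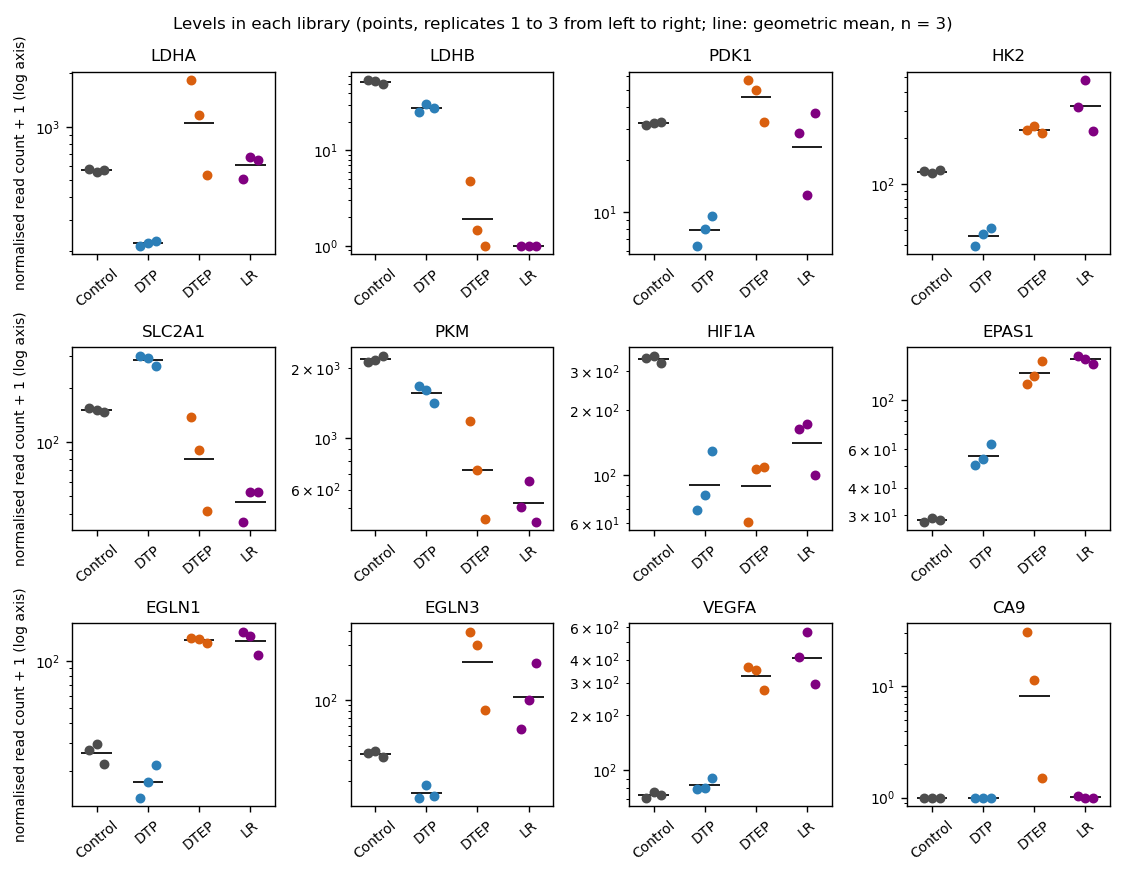
Normalised read count + 1 (vertical log axis) of 12 genes in each of the 12 libraries, with points for replicates 1 to 3 from left to right in each group and a line for the geometric mean (n = 3). LDHA dipped in DTP and was at 1831, 1159 and 534 in the DTEP libraries while LDHB ended without a read in LR. HIF1A stayed below Control in the 3 treated groups while EPAS1 lay above it.

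The HIF subunits moved in opposite directions. HIF1A, which encodes HIF-1α, was at 344, 353 and 327 in Control, 68.0, 80.1 and 129 in DTP, 60.0, 106 and 108 in DTEP and 162, 171 and 99.4 in LR. Every library under lapatinib was below every Control library. HIF1A fell by 1.93 (adjusted p = 0.000163) in DTP and stayed lower than Control, with changes of -1.94 (adjusted p = 8.99e-05) in DTEP and -1.28 in LR (SE 0.28, adjusted p = 0.0018). EPAS1, which encodes HIF-2α, was at 27.0, 28.0 and 27.4 in Control, 49.4, 52.8 and 61.9 in DTP, 117, 128 and 149 in DTEP and 157, 153 and 145 in LR. The Control, DTP and DTEP groups stood in ascending order without overlap, and DTEP and LR overlapped. EPAS1 was higher in DTP by 0.96 (adjusted p = 8.35e-05), just under the size limit, rose by 1.25 (adjusted p = 3.75e-06) in DTEP, and was above Control by 2.21 (adjusted p = 4.35e-08) in DTEP and by 2.42 in LR (SE 0.13, adjusted p = 1.79e-08). Per kilobase of exon, HIF1A had a mean level of 66.2 in Control and 17.9 in DTP, then 17.7 in DTEP and 28.0 in LR, and EPAS1 had 3.77, 7.50, 18.0 and 20.8. HIF1A has antisense transcripts at its locus, and the counting ignored strand.

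The HIF prolyl hydroxylase genes EGLN1 and EGLN3 rose in DTEP. EGLN1, which encodes PHD2, was at 26.2, 28.5 and 21.1 in Control, 12.5, 15.9 and 20.8 in DTP, 138, 136 and 128 in DTEP and 152, 143 and 108 in LR. The DTEP and LR libraries were several-fold above every Control and DTP library. EGLN1 rose by 2.98 (adjusted p = 9.85e-08) from DTP to DTEP, and was above Control by 2.37 (adjusted p = 6.87e-07) in DTEP and by 2.36 in LR (SE 0.19, adjusted p = 5.85e-07). EGLN3, which encodes PHD3, was at 33.5, 35.0 and 31.3 in Control, 13.3, 17.4 and 13.6 in DTP, 391, 298 and 81.6 in DTEP and 55.5, 99.1 and 209.8 in LR. All DTP libraries were below and all DTEP and LR libraries above Control, with a spread of several-fold inside DTEP and LR. EGLN3 rose by 3.77 (adjusted p = 4.81e-05) in DTEP and was above Control by 2.64 (adjusted p = 0.000998) in DTEP and by 1.63 in LR (SE 0.53, adjusted p = 0.0171), the last with an adjusted p = 0.0776 without the third LR library. Its -1.13 in DTP did not pass (adjusted p = 0.0889), but was called lower in the 6 libraries alone (adjusted p = 0.000203), by DESeq2 (adjusted p = 0.048) and without the third DTEP library (adjusted p = 0.0157).

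The windows upstream of EGLN1 (chr1:231422288-231422537, minus strand) and EGLN3 (chr14:33951075-33951324, minus strand) are shown for their large rise in DTEP (GRCh38.p14, RefSeq, 5′ to 3′), with capitals as above.
EGLN1: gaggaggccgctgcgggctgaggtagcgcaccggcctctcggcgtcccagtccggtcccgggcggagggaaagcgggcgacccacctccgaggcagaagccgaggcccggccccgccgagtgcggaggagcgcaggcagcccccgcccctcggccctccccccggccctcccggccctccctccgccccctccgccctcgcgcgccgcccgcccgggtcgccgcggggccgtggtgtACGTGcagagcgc
EGLN3: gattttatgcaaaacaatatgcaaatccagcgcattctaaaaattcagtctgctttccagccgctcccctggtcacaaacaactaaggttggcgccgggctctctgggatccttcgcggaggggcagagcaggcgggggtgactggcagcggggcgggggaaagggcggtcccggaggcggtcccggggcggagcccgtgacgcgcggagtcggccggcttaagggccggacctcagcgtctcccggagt
The EGLN1 window holds 1 ACGTG and the EGLN3 window holds neither motif.

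Among the hypoxia response genes, CA9 appeared in DTEP. CA9, a membrane carbonic anhydrase used as a marker of hypoxia, had 0 reads in all Control and DTP libraries, 626, 253 and 9 reads in DTEP, and 1, 0 and 0 reads in LR. As normalised read counts the DTEP values were 30.0, 10.4 and 0.505. Against the limit of 3 reads per library, the DTEP mean was at least 83.6-fold higher than in Control, at least 78.9-fold higher than in DTP and at least 82.1-fold higher than in LR. The gene did not reach the filter and was not tested in the fit reported here. Without the filter its change was 3.02 from DTP to DTEP (limma, adjusted p = 0.00637) and -3.00 from DTEP to LR, which did not pass (limma, adjusted p = 0.0641). The level was carried by the first 2 DTEP libraries.

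VEGFA, the vascular growth factor, was at 70.0, 75.0 and 72.9 in Control, 78.3, 79.5 and 89.7 in DTP, 365, 349.6 and 272 in DTEP and 414, 567 and 293 in LR. Every DTEP and LR library was above every Control and DTP library. It rose by 1.97 (adjusted p = 3.90e-06) upon the DTP-DTEP transition and was above Control by 2.15 (adjusted p = 2.49e-06) in DTEP and by 2.48 in LR (SE 0.20, adjusted p = 6.14e-07). P4HA1, a collagen prolyl hydroxylase subunit, was at 47.7, 50.8 and 43.1 in Control, 19.3, 25.5 and 27.2 in DTP, 205, 129.7 and 99.1 in DTEP and 109, 128 and 79.6 in LR. Its DTP libraries were below and its DTEP and LR libraries above every Control library. P4HA1 rose by 2.49 (adjusted p = 3.28e-06) in DTEP and was above Control by 1.53 (adjusted p = 0.000226) in DTEP and by 1.12 in LR (SE 0.25, adjusted p = 0.00194), the last 0.97 without the second LR library. Its paralog P4HA2 was called in no comparison and lay between 18.3 and 41.7 in the 12 libraries.

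BNIP3 and BNIP3L, receptors of mitophagy, rose in DTEP. BNIP3 was at 20.7, 19.6 and 18.0 in Control, 13.9, 14.7 and 17.3 in DTP, 123, 81.0 and 48.8 in DTEP and 45.2, 47.5 and 27.2 in LR. Each DTEP library was above every library of the other groups. BNIP3 rose by 2.29 (adjusted p = 2.32e-05) from DTP and by 1.97 from Control (SE 0.29, adjusted p = 0.00011). BNIP3L was at 86.1, 86.3 and 70.9 in Control, 41.1, 52.8 and 70.4 in DTP, 140.2, 123 and 101 in DTEP and 121, 88.0 and 76.3 in LR. It rose by 1.16 upon the DTP-DTEP transition (SE 0.22, adjusted p = 0.000467), a change of 0.97 and no call without the first DTP library. ANKRD37, an ankyrin repeat gene induced by hypoxia, was at 3.27, 4.67 and 4.57 in Control, 9.34, 9.48 and 8.12 in DTP, 14.0, 24.1 and 10.9 in DTEP and 6.42, 4.10 and 1.55 in LR. DTP and DTEP were above Control in every library, and the LR libraries spread around the Control level. ANKRD37 was above Control by 1.69 (adjusted p = 0.00153) in DTEP and fell by 1.85 from DTEP to LR (SE 0.36, adjusted p = 0.0161), the latter with an adjusted p = 0.0821 without the second DTEP library. KDM3A, a histone demethylase induced by hypoxia, was called in no comparison, with means of 130.5 ± 0.285 in Control, 157 ± 23.7 in DTP, 120.5 ± 20.0 in the DTEP group and 137 ± 12.2 in the LR group (SD, n = 3).

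ADM and NDRG1 were the members that rose in DTP. ADM, the vasodilator peptide adrenomedullin, was at 2.76, 1.96 and 2.10 in Control, 13.5, 9.63 and 9.44 in DTP, 1.53, 0.947 and 0.0561 in DTEP and 0.211, 0.387 and 0.0969 in LR. The DTP libraries were the highest and all later libraries were below Control. ADM rose by 1.85 (adjusted p = 0.000178) in DTP, fell by 2.76 (adjusted p = 2.98e-06) in DTEP and was below Control in LR with a change of -1.41 (SE 0.27, adjusted p = 0.000744). NDRG1, a stress-responsive gene, was at 70.9, 73.3 and 73.8 in Control, 290.2, 295 and 279 in DTP, 756, 152 and 84.3 in DTEP and 59.5, 64.9 and 59.0 in LR. The DTP libraries were close together whereas the DTEP libraries ranged from above DTP down to near Control. NDRG1 rose by 1.97 (adjusted p = 0.01) in DTP, and its DTEP excess of 1.54 over Control (SE 0.55, adjusted p = 0.0303) was 0.63 without the first DTEP library and not called there. That call was also lost in the 6 libraries alone (adjusted p = 0.114) and without each Control library in turn (adjusted p = 0.0654 to 0.0695). From DTEP to LR the change was -1.79 (adjusted p = 0.061), and without the third DTEP library it was -2.46 (limma, adjusted p = 0.00134). With all libraries kept, edgeR (-2.34, adjusted p = 0.0281) and DESeq2 (-2.39, adjusted p = 0.000383) called it lower as well.

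The ADM window is shown for the large fall of ADM from DTP to DTEP (chr11:10304823-10305072, plus strand, GRCh38.p14, RefSeq, 5′ to 3′), with capitals as above.
ADM: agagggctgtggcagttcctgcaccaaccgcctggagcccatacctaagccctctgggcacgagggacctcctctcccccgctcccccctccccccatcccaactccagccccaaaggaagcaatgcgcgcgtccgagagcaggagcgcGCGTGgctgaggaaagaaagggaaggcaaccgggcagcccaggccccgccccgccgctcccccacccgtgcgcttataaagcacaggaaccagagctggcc
It holds 1 GCGTG and no ACGTG. NDRG1, VEGFA, SLC16A1, BNIP3L and SLC2A3 had no entry.

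**Figure D3:**
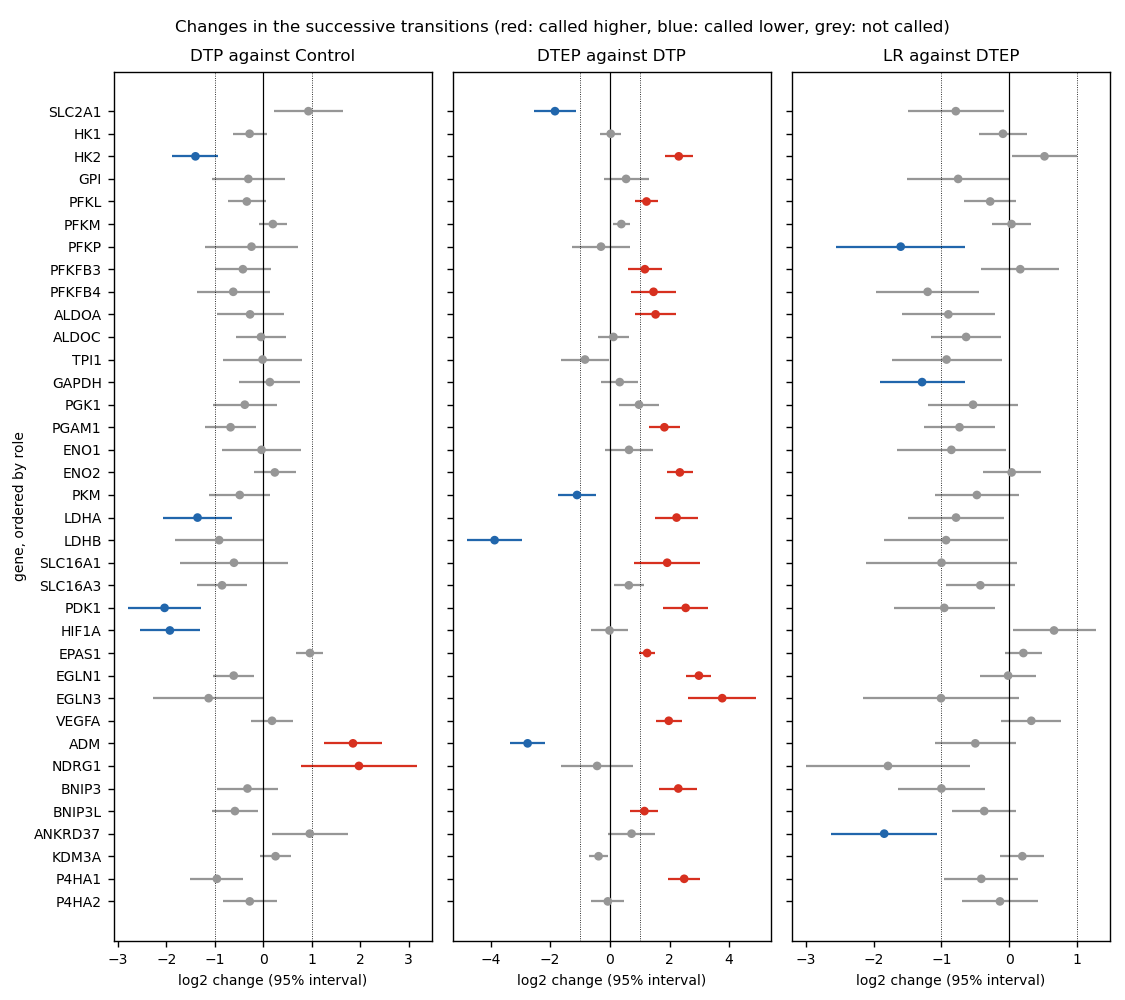
Change of the 36 tested genes (vertical axis, ordered by role) in the 3 successive transitions as log2 change with its 95% interval (horizontal axis), with red for called higher, blue for called lower, grey for not called and dotted lines at 1 and -1. The middle panel holds 17 red and 4 blue genes, and the right panel 3 blue genes with wide intervals.

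The spread inside DTEP set how firmly the DTEP-LR transition could be described. On log2 values, the 36 genes had a median SD of 0.05 in Control and 0.16 in DTP, but of 0.60 in DTEP and 0.27 in LR, with 0.07, 0.17, 0.33 and 0.20 over all genes tested. The first DTEP library was the highest of the 3 for 27 of the 36 genes, where the share of all genes was 42.8%. The third was the lowest for 32 of the 36, where the share of all genes was 47.1%. It lay nearer to the LR mean than to the mean of the other DTEP libraries for 32 of the 36 genes (88.9%), where the share of all genes was 73.3%. LDHB at 0 reads, TPI1 at 89.4, PFKP at 45.0 and SLC2A1 at 40.4 in that library are examples, whereas HK2 at 213 was near the other DTEP libraries.

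Without the third DTEP library, 17 of the 36 genes were lower in LR than in DTEP, against 9.7% of all genes tested, and 0 were higher, against 6.44%. The 17 were ALDOA, ANKRD37, BNIP3, EGLN3, ENO1, GAPDH, GPI, LDHA, LDHB, NDRG1, PDK1, PFKFB4, PFKP, PGAM1, SLC16A1, SLC2A1 and TPI1. Among them GAPDH fell by 1.62 (limma, adjusted p = 0.000186) and ENO1 fell by 1.42 (limma, adjusted p = 0.000163). This fit has 2 DTEP libraries. The library left out was the lowest of its group for most of these same genes, so the added falls follow in part from that choice. Without the second DTEP library instead, limma called 0 of the 36 genes (0.487% of all genes were called higher and 0.385% lower), with 11 lower and 2 higher at an unadjusted p below 0.05 (14% and 9.12%). In a fit of the 6 DTEP and LR libraries alone limma called 0 of all 13794 genes and so 0 of the 36, with 8 lower and 0 higher at that unadjusted p (9.74% and 6.64% of all genes). Why the third DTEP library lay apart was not tested. The groups did not overlap in the DTEP-LR transition for 7 lower genes, against 13.4% of all genes, and for 0 higher genes, against 9.15%.

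Proliferation moved with these groups too. The 25 proliferation genes summed to between 4850 and 4916 in Control, between 817 and 851 in DTP, between 3849 and 6593 in DTEP and between 1329 and 3171 in LR, with 3849 in the third DTEP library, and their part in the changes above was not tested.

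Ratios of related genes within a library do not depend on its scaling beyond the pseudocount, and 12 pairs were compared among the 4 groups with an exact permutation test. Adjusted over the 12 pairs, 9 passed at 0.05, and the smallest p the test can give before adjustment is 6.49e-05. The log2 ratio LDHB/LDHA was -3.44 ± 0.07 in Control, -2.99 ± 0.11 in DTP, -9.09 ± 0.53 in the DTEP group and -9.24 ± 0.22 in the LR group (adjusted exact p = 0.00178). It split Control and DTP from DTEP and LR by about 6 units, a size set by the value of 1 added to LDHB levels near 0, and the range of the group means was 6.25 here and 9.53 with 0.1 added instead. EPAS1/HIF1A was -3.59 ± 0.05 in Control, -0.70 ± 0.31 in DTP, 0.56 ± 0.35 in the DTEP group and 0.11 ± 0.37 in the LR group (adjusted exact p = 0.000468). This ratio shifted already in DTP, with all libraries under lapatinib above all Control libraries. HK2/HK1 was -1.98 ± 0.02 in Control, -3.09 ± 0.22 in DTP, -0.81 ± 0.17 in the DTEP group and -0.20 ± 0.32 in the LR group (adjusted exact p = 0.00039). ENO2/ENO1 was -5.75 ± 0.03 in Control, -5.48 ± 0.01 in DTP, -3.78 ± 0.59 in the DTEP group and -2.89 ± 0.14 in the LR group (adjusted exact p = 0.00039). Both pairs moved toward the inducible or neuronal form in DTEP and LR. PFKP/PFKL was 0.42 ± 0.09 in Control, 0.52 ± 0.13 in DTP, -1.01 ± 0.74 in the DTEP group and -2.33 ± 0.91 in the LR group (adjusted exact p = 0.00178). P4HA2/P4HA1 was -0.31 ± 0.09 in Control, 0.37 ± 0.27 in DTP, -2.19 ± 0.23 in the DTEP group and -1.92 ± 0.38 in the LR group (adjusted exact p = 0.000468). In these pairs the balance moved to the second gene in DTEP and LR. For PFKP/PFKL, the mean of PFKP went from 147 in Control to 35.5 in LR, and that of PFKL from 110 to 169, which was not called.

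BNIP3L/BNIP3 (group means over a range of 1.39, adjusted exact p = 0.00351) and PFKFB4/PFKFB3 (1.37, adjusted exact p = 0.0183) also passed, and SLC2A3/SLC2A1 (2.60, adjusted exact p = 0.000468) followed SLC2A1 since SLC2A3 was near 0. ALDOC/ALDOA (1.41, adjusted exact p = 0.0603), SLC16A3/SLC16A1 (1.53, adjusted exact p = 0.0511) and EGLN3/EGLN1 (0.99, adjusted exact p = 0.497) did not pass. Single libraries decided the first 2 of these, as ALDOC/ALDOA passed without the third DTEP library (adjusted exact p = 0.00273) or the third LR library (0.0457), and SLC16A3/SLC16A1 without the third DTEP (0.0339), the second LR (0.0289) or the third LR library (0.0457). The 2 hydroxylases thus had ratios that ranged from -1.44 to 1.49 over the libraries, with DTEP and LR each covering both signs.

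**Figure D4:**
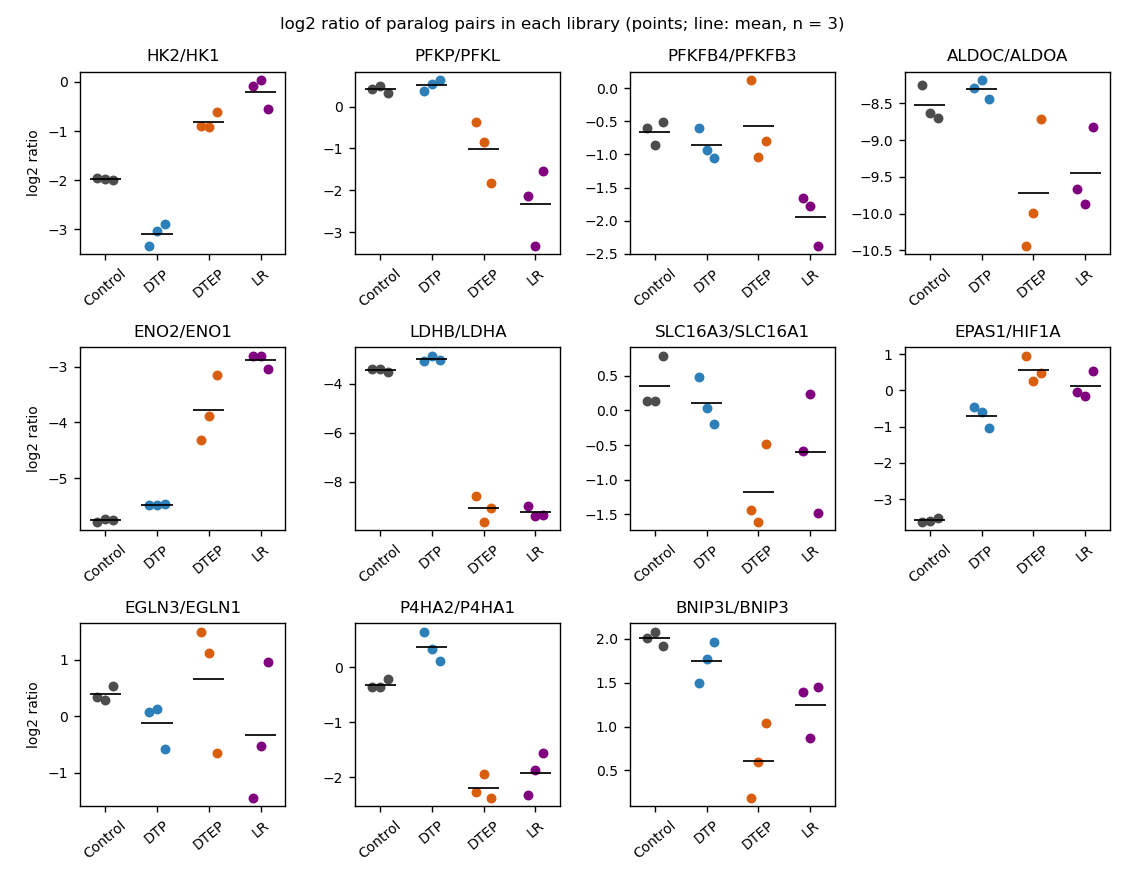
log2 ratio of related genes (vertical axes, on log2(value + 1)) in each library of the 4 groups for 11 pairs, with points for libraries and a line for the mean (n = 3). LDHB/LDHA dropped from about -3 in Control and DTP to about -9 in DTEP and LR, and EPAS1/HIF1A rose from -3.59 in Control to above 0 in DTEP and LR on average.

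Other genes of the same pathways were counted from lists, beside 9.24% of all genes higher and 15.8% lower in DTP and 22.4% and 19.5% upon the DTP-DTEP transition. Of 16 tested further glycolysis genes, 1 rose and 4 fell in DTP, and 4 rose and 2 fell upon the DTP-DTEP transition. There PGM1, a phosphoglucomutase, rose by 2.78 from 12.1 ± 1.60 to 92.9 ± 35.7 (adjusted p = 3.06e-06), and GPD2, the mitochondrial glycerol phosphate dehydrogenase, rose by 2.03 from 31.4 ± 9.73 to 130.0 ± 31.4 (adjusted p = 1.66e-05, mean ± SD of normalised read counts, n = 3). SLC2A13, a myo-inositol transporter, fell by 2.37 in DTP (adjusted p = 0.000792). Of 13 genes that carry pyruvate into the mitochondria or regulate its entry, 1 rose and 4 fell in DTP, and 5 rose and 2 fell in DTEP relative to DTP. DLAT, a subunit of pyruvate dehydrogenase, rose by 1.79 from 24.0 ± 6.93 to 85.5 ± 24.0 (adjusted p = 3.02e-05). MPC1, part of the mitochondrial pyruvate carrier, rose by 1.59 from 14.2 ± 1.32 to 45.7 ± 11.3 (adjusted p = 1.27e-05). PDK2, a second pyruvate dehydrogenase kinase, went the other way from PDK1 in DTEP, as it fell by 1.65 from 254 ± 27.3 to 80.6 ± 13.4 (adjusted p = 1.00e-05).

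Of 13 HIF pathway regulators, 1 rose and 3 fell in DTP, and 3 rose and 2 fell in DTEP relative to DTP. CITED2, which competes with HIF for its coactivator, rose by 2.10 in DTP (adjusted p = 9.39e-06), and SIAH2, a ubiquitin ligase that targets EGLN enzymes, fell by 2.37 from 313 ± 5.37 to 65.5 ± 35.5 upon the DTP-DTEP transition (adjusted p = 1.53e-05). ARNT2, a HIF dimerisation partner, fell by 1.98 from a low level (adjusted p = 9.24e-08). Of 35 further hypoxia response genes, 7 rose and 5 fell in DTP, and 14 rose and 4 fell in DTEP relative to DTP. From DTEP to LR 0 rose and 2 fell, against 1.45% and 2.5% of all genes. BHLHE40, a transcriptional repressor induced by hypoxia, rose by 7.14 from 1.34 ± 0.440 to 326 ± 28.7 (adjusted p = 6.21e-11), and STC1, the secreted stanniocalcin, rose by 5.59 from 0.380 ± 0.184 to 75.1 ± 47.4 (adjusted p = 8.60e-07). IGFBP3, an IGF-binding protein, fell by 4.16 with widely spread DTEP libraries (adjusted p = 0.0168), a call that edgeR and a fit without the third DTEP library did not keep. The median change of the 35 genes was 0.25, 0.80 and -0.03 in the successive transitions.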

How the data were processed

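The authors made stranded poly(A) libraries, aligned reads to hg38 with Rsubread 2.0.0 and assigned them to RefSeq gene models at default settings, which ignore strand. The submitters' processing notes also name bcl2fastq and edgeR. The deposited table holds a normalised signal per gene and library. Divided by the value of 1 read, the 199680 values above 0 came out whole within 1e-06 (100%), so whole reads were recovered, and edgeR 4.0.16 gave the same values as trimmed-mean CPM. Groups came from the labels.

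In R 4.3.3, limma 3.58.1 with a variance trend was fitted to log2(value + 1) of all 12 libraries, without covariates, for genes at 1 or more in at least 3 libraries (13794 of 26485), two-sided, with Benjamini-Hochberg adjustment per comparison. The variance of a gene was shared by all groups, though the median SD of the members was 0.05 in Control, 0.16 in DTP and 0.60 in DTEP. Tests of DTP against Control thus carried DTEP spread and could be too strict, and tests with DTEP too lenient. Adding 1 understates the change of low genes. A level of 0 allows up to 3 reads (0.124 to 0.173), for counting error only. Pair ratios used an exact two-sided one-way permutation test over 369600 arrangements. Lengths were the union of the exons of all GENCODE 44 transcripts of a gene, whereas reads were assigned to RefSeq models. Levels per kilobase are therefore rough when genes are compared. Promoters came from RefSeq GRCh38.p14, the build of hg38, with the first listed start of each gene. The members and gene lists were chosen with earlier results of these data known, and so were the rules for naming genes: each called member in every library, and up to 3 called genes of each other list with the largest change.

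On reads simulated for DTP against Control, limma, edgeR and DESeq2 recovered 200 of 200 changed genes. They gave 0, 1 and 0 false calls among 12986 genes tested, and without a change each called 0 of 13019. The planted changes were all well above the limit on size, with the same assumed spread for every gene. Full recovery was therefore likely from the start and says nothing of changes near that limit. The other comparisons were not simulated, and recovery at the wider spread of the DTEP libraries was not tested. No 2 libraries of a group agreed within sampling noise (smallest chi-square per gene 1.71). Alternatives were pseudocounts of 0.1 and 0.5, a filter at a mean of 5 or none, no trend, only the 6 libraries compared, median-of-ratios scaling, the replicate block, DESeq2 1.42.0 and edgeR's quasi-likelihood test on recovered reads, an absolute log2 change above 2 (the study's threshold), the adjusted p alone, and each library left out. Where a fit dropped a library, the text names it. The results of the pentose phosphate list are not reported here.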

Additional observations from a re-analysis of the deposited data

How the results depend on the processing

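Of 82 gene results, 65 kept their direction and their side of the threshold under every alternative tried. The 82 were the called member results, a few uncalled ones of EGLN3 and NDRG1, and the genes named from the other pathway lists. They do not cover every comparison of every member. Of 1794 alternative values, 54 lost the call, 7 gained one and 3 turned direction. The counts of called members moved as follows. In DTP, the 2 higher genes became 1 with a filter at a mean of 5, 4 with median-of-ratios scaling, 5 with edgeR, 4 with DESeq2, 0 with a log2 change above 2 and 5 with the adjusted p alone, and the 4 lower genes became 1 and 9 with the last pair of settings. With a log2 change above 2, DTEP against DTP gave 8 higher and 2 lower, DTEP against Control 5 and 1, and LR against Control 4 and 3, and LR against DTEP 0 lower. With the adjusted p alone, DTEP against Control gave 5 lower and LR against Control 11 higher. The 3 genes lower in LR than in DTEP became 1 without a filter, 0 in the 6 libraries alone, 7 with edgeR and 9 with DESeq2.

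Leaving out 1 library gave 2 to 3 higher and 4 to 5 lower in DTP (7.74% to 9.78% and 13.9% to 18.2% of all genes). In DTEP against DTP it gave 16 to 20 and 3 to 6 (21.4% to 23.8% and 18.7% to 20.9%). In DTEP against Control it gave 8 to 18 and 3 to 6 (14.9% to 16.3% and 15.3% to 17.2%). In LR against Control it gave 6 to 8 and 7 to 7 (16.5% to 17.1% and 18.3% to 20.5%). In LR against DTEP it gave 0 to 17 lower (0.385% to 9.7%). There the count was 17 when DTEP replicate 3 was left out (9.7%) and 0 for DTEP replicate 2 (0.385%). It was 1 for each of Control replicates 1 to 3, DTP replicate 2, DTEP replicate 1, or LR replicate 1 or 2 (0.69% to 1.23%). In DTEP against Control the 6 lower genes came without DTEP replicate 1. The range of group means of the ALDOC/ALDOA ratio was then 1.15 to 1.91 and that of SLC16A3/SLC16A1 1.31 to 1.88, and both passed the test without DTEP replicate 3 or LR replicate 3 and the second also without LR replicate 2. NDRG1 in DTEP against DTP was -0.43, but 0.13 with edgeR, 0.068 with DESeq2 and 0.24 without DTEP replicate 3, and -1.34 (limma, adjusted p = 8.97e-05) without DTEP replicate 1. The cause was not tested.

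The replicate number did not pair most of the libraries, since 2 of 18 correlations of same-numbered deviations were over 0.1 (range -0.44 to 0.36). Both were between DTP and DTEP, with 0.36 for replicate 1 and 0.34 for replicate 3, where replicate 2 gave -0.005. With the replicate number as a block, DTEP against DTP still gave 17 higher and 4 lower members (22.4% and 19.5% of all genes). PFKP in LR against DTEP (limma, adjusted p = 0.0591) and SLC16A1 in DTEP against Control (limma, adjusted p = 0.0579) lost the call with that block, and all genes called in LR against DTEP numbered 413 instead of 545. With median-of-ratios scaling, all genes together shifted by -0.10 in their median in DTEP against DTP. The depth limits LDHB in LR and CA9 outside DTEP to the level of 3 reads.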

Other observations

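Of 12 tested glycogen genes, 0 rose and 2 fell in DTP, against 9.24% and 15.8% of all genes. Upon the DTP-DTEP transition 4 rose and 2 fell, against 22.4% and 19.5%. GBE1, the glycogen branching enzyme, rose by 2.21 from 8.88 ± 2.16 to 44.8 ± 10.5 (limma, adjusted p = 3.08e-06), and PPP1R3B, a glycogen-targeting phosphatase subunit, rose by 1.96 from 18.4 ± 3.86 to 81.3 ± 47.8 (limma, adjusted p = 0.000148), whereas PPP1R3C, another such subunit, fell by 3.29 from 26.1 ± 3.36 to 2.71 ± 3.39 (limma, adjusted p = 6.59e-05). Of 5 tested gluconeogenesis genes, FBP1, a fructose bisphosphatase that opposes phosphofructokinase, fell by 4.70 from 171 ± 20.6 to 7.74 ± 7.79 (limma, adjusted p = 3.96e-06), and PC, pyruvate carboxylase, rose by 2.27 from 12.8 ± 2.11 to 69.1 ± 26.8 (limma, adjusted p = 9.92e-06). The proliferation list had 0 higher and 25 lower of 25 genes in DTP (9.24% and 15.8% of all genes). It had 23 higher and 0 lower in DTEP relative to DTP (22.4% and 19.5%), and 0 higher and 15 lower in LR relative to DTEP (1.45% and 2.5%). Of the 12 luminal markers, 1 was higher and 0 lower in DTP (9.24% and 15.8%), and 4 were higher and 7 lower in DTEP relative to DTP (22.4% and 19.5%).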
